A study of Mus musculus with 10 samples.

Results

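The genes described here encode 36 members of the nuclear receptor superfamily, taken by name from the 21938 protein-coding genes on assembled mouse chromosomes, with the retinoid receptors, the PPARs and 4 further receptors left aside. For each gene, binding of the aryl hydrocarbon receptor (AHR) was read from chromatin immunoprecipitation sequencing (ChIP-seq) peaks that overlapped the gene or the 10 kb on either side of it. A WT peak lay at 31 of the 36 genes, a share close to that of other genes of their length, and the strongest sites were a peak at the start of Nr6a1 and an intronic peak of Nr4a2.

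The organoids were grown from mouse colon in WENR, a medium that keeps them in a stem cell state, and every group, the AHR KO included, received 5 nM FICZ, a high affinity AHR ligand, for 1 h. The WT group had 4 immunoprecipitates (IP) with an anti-AHR antibody and 4 inputs, and the AHR KO group, whose Ahr gene is deleted in the epithelium by a Villin-driven Cre, had 1 IP and 1 input. The peaks came as 1 list of 123652 for WT and 1 list of 1931 for AHR KO, with no value per culture, so that no spread between cultures can be given and the values below are descriptions without a test. The lists carry neither expression nor reads, and therefore neither the cell type of the organoids nor the loss of Ahr could be checked from them.

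Nuclear receptors are transcription factors that in most members have a zinc finger domain for DNA and a pocket that takes up a lipophilic ligand such as a steroid, thyroid hormone, bile acid or oxysterol. Many bind as heterodimers with a retinoid X receptor to repeats of the hexamer AGGTCA, others bind as homodimers or monomers, and so-called orphans have no agreed ligand. In the gut they are known for bile acid, sterol, xenobiotic, vitamin D and corticosteroid responses. AHR itself belongs to a different family of ligand-dependent factors and, with its partner ARNT, recognizes the core GCGTG, most often within TNGCGTG.

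The sequences of the strongest sites show what lies under these peaks. Each line gives the plus strand of the GRCm38 (mm10) genome over the middle of a peak, and capitals mark GCGTG or its reverse complement CACGC. The first pair comes from gene starts, at chr2:38927358-38927557 (Nr6a1) and chr4:48044952-48045151 (Nr4a3), and the other sequences come from introns, at chr2:57116223-57116422 and chr2:57117731-57117930 (Nr4a2), chr9:68930161-68930360 (Rora) and chr11:98763130-98763329 (Thra).
Nr6a1 promoter: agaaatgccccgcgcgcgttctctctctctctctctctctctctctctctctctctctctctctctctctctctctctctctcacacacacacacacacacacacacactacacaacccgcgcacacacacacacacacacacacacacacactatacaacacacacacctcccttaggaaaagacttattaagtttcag
Nr4a3 promoter: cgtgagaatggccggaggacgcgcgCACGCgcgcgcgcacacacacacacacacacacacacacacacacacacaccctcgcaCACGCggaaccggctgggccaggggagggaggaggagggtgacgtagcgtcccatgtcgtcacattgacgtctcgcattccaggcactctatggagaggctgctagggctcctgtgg
Nr4a2 intron 1: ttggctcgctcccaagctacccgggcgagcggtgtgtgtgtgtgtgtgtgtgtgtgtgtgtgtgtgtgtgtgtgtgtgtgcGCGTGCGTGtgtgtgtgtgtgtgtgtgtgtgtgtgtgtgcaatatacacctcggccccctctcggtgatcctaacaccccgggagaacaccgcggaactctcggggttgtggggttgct
Nr4a2 intron 1, second site: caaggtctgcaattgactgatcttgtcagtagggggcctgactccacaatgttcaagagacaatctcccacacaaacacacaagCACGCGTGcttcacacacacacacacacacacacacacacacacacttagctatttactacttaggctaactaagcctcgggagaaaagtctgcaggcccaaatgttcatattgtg
Rora intron 1: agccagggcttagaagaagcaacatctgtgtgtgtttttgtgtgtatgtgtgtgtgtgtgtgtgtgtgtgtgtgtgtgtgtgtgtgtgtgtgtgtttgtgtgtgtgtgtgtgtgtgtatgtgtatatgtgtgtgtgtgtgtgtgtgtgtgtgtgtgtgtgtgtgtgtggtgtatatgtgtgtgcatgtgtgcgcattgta
Thra intron 7: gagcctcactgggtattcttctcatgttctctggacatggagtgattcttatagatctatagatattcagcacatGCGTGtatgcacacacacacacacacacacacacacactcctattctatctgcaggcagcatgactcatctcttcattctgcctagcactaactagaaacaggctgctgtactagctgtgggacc
All of the printed sites held a run of CA or TG dinucleotides, which reached 30 bases at Nr6a1, 38 at Nr4a3, 48 and 34 at the Nr4a2 sites, 48 at Rora and 28 at Thra. At Nr6a1 a CT run of 64 bases stood beside it and was the longer of the pair. Another intronic site of Rora, tied with Thra at a score of 9.304 and not printed, held a CT run of 74 bases and no CA run beyond 2 bases. The Nr4a3 site and both Nr4a2 sites held 2 copies of GCGTG each, counted on both strands, the Thra site held 1, and the Nr6a1 and Rora sites held none. None of them held the longer word TNGCGTG.

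The lists give 1 score per peak without naming it, and from its steps it was read as the fold enrichment at the summit over the local background. Over the 36 genes there were 257 distinct WT peaks with a median score of 5.65, quartiles of 4.65 and 6.64, and a range from 2.75 to 10.96. The 58588 peaks at other protein-coding genes had a median of 5.32. For 145 of the 257 peaks the score fell on whole multiples of 0.3323, the step that a background of 2.009 fragments gives, and these peaks stood for a median of 16 fragments at the summit, from 10 to 32. Among these 145 peaks, scores that differ by 1 step differ by a single fragment. The other 112 did not fall on the step, and no fragments were read for them.

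Of the 36 genes, 31 (86.1%, 95% Wilson interval 71.3 to 93.9) had a WT peak in the gene or within 10 kb, beside 78.3% of all protein-coding genes. The nuclear receptor genes are long, with a median of 43.9 kb against 17.4 kb for all protein-coding genes, and longer genes hold more peaks. Among the 500 protein-coding genes nearest in length to each of them, 86.9% had a peak. A peak among the top 10% of all WT scores, at 7.14 or above, was present at 13 genes (36.1%), beside 23.0% of all protein-coding genes and 34.5% of the genes nearest in length. The intervals cover counting error only.

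**Figure D1:**
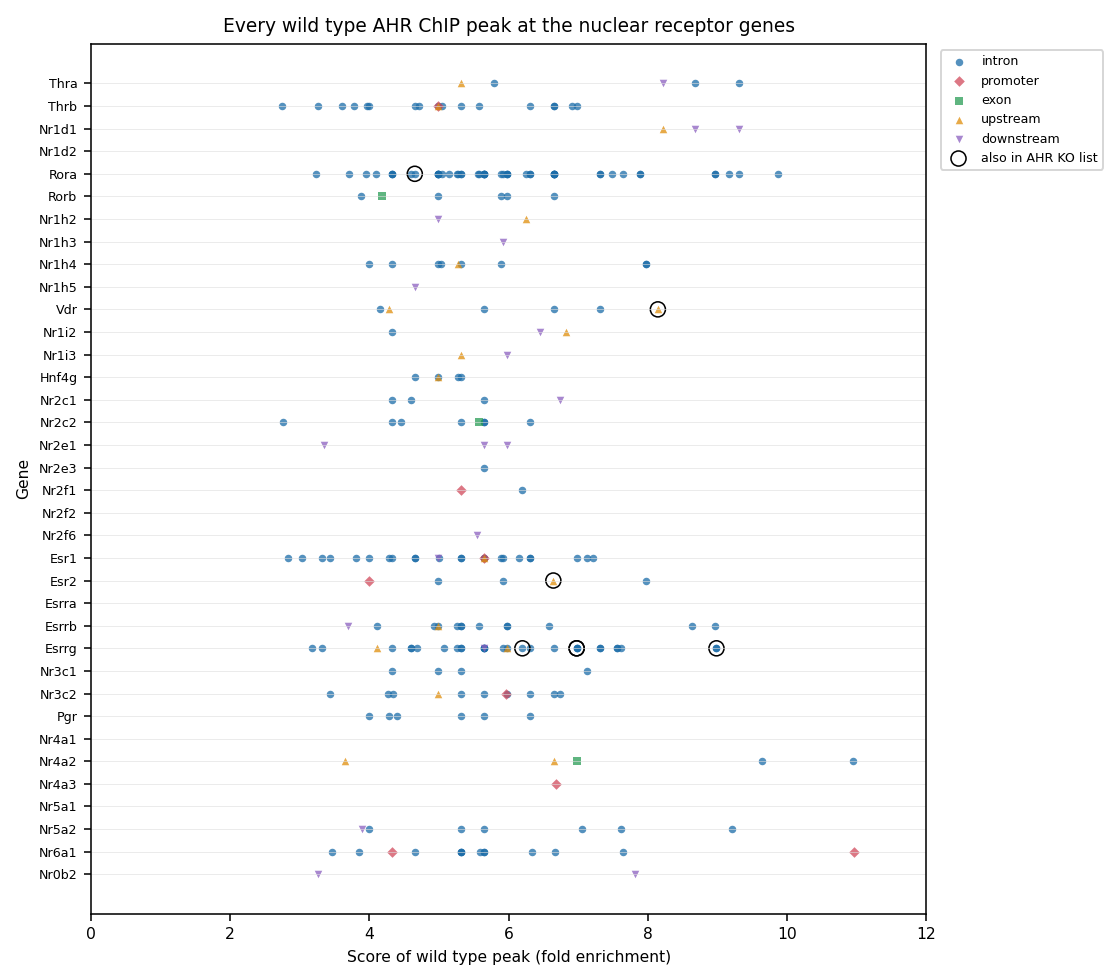
Score of every WT peak (fold enrichment, horizontal axis) at each of the 36 nuclear receptor genes (vertical axis), with the marker giving the place of the peak and a ring marking peaks also in the AHR KO list. The highest points belong to the promoter peak of Nr6a1 (10.965) and an intronic peak of Nr4a2 (10.944), and 5 genes have no point.

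The thyroid hormone receptor genes differed in what they carried. Thra, which encodes the receptor form TRα, had 5 peaks, 3 of them among the top 10% of scores, and its best peak scored 9.304 in intron 7, the sequence shown above. That score stood at the 96.1 percentile of the 500 genes nearest to it in length, whose median was 5.79. The peak was only 23.5% soft-masked, that is, mostly outside annotated repeats. Thrb, which encodes TRβ, had 19 peaks over its 377.8 kb, where genes of its length had a median of 16, but its best score of 6.978 was at the 22.2 percentile.

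The REV-ERB genes encode heme-binding repressors of the circadian clock. Nr1d1 overlaps the end of Thra on the opposite strand of chromosome 11, and its 3 peaks, at 9.304, 8.677 and 8.22, were all counted for Thra as well. The 9.304 peak lay 4701 bp past the end of Nr1d1 and inside Thra, whereas the 8.22 peak lay 3300 bp upstream of the Nr1d1 start. These 3 shared peaks are the reason why 257 distinct peaks gave 260 pairs of gene and peak, and they cannot be assigned to either gene from their position. Nr1d2, which sits on chromosome 14 as Thrb does, had no peak, and the nearest lay 17.8 kb downstream with a score of 5.28.

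The ROR genes encode activators that bind the same elements as the REV-ERBs. Rora, at 734.5 kb the longest of the set, held 52 peaks, and its length neighbours a median of 23. Its best peak, at 9.864 in intron 1, was at the 75.4 percentile for its length, and a second intronic peak at chr9:68812994-68813237 scored 9.304 over a CT repeat that was 100% soft-masked. Rorb had 6 peaks, with a best score of 6.646.

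The receptors for sterols and bile acids set the balance of cholesterol and bile acid synthesis, and the genes differed in their best scores. The liver X receptor genes Nr1h2 and Nr1h3, sensors of oxysterols, had 2 and 1 peaks, with best scores of 6.247 and 5.918, and none lay in the gene body. The better Nr1h2 peak was 1320 bp upstream of its start and the other inside Pold1, and the Nr1h3 peak was 390 bp past the gene end, inside Madd. Nr1h4, which encodes the bile acid receptor FXR, had 9 peaks where its neighbours had a median of 4. Its 2 best peaks both scored 7.975, in introns 7 and 8, and the one in intron 8 held 4 copies of GCGTG. Nr1h5, the related lanosterol receptor gene, had 1 peak at 4.652, which lay 9464 bp past its end and within Sycp1. Nr0b2 encodes SHP, a receptor without a DNA-binding domain that represses bile acid synthesis. It spans only 3.2 kb, and its better peak scored 7.81 at 4100 bp past the gene end, at the 91.6 percentile for its length.

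The receptors for vitamin D and for xenobiotics regulate mineral uptake and the breakdown of hormones and drugs in gut and liver. All 3 of their genes carried peaks, beside 92.0%, 91.8% and 66.2% of genes of the lengths of Vdr, Nr1i2 and Nr1i3. Vdr had 6, beside a median of 3 for its length, with a best score of 8.145. That peak met the 10 kb limit by its outermost base, and the next best lay in intron 1 with 7.31. Nr1i2, encoding the xenobiotic sensor PXR, had 3 peaks and a best score of 6.818 at 8678 bp upstream of its start, inside Maats1. Nr1i3, encoding its relative CAR, had 2 peaks and a best score of 5.981 at 2932 bp past its end.

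The NR2 genes had 24 peaks at 7 of 8 genes, and no score reached the top 10%. Of all protein-coding genes, 78.3% had a peak and 23.0% had a peak in the top 10%. With only 8 genes, these counts do not set NR2 apart, and the difference was not tested. Hnf4g, which encodes a regulator of enterocyte lipid genes, had 5 peaks of 5.317 or less in 150.0 kb, and its best score was at the 8.3 percentile, the lowest of the 31 genes with a peak. Nr2c1 and Nr2c2, which encode the testicular orphan receptors TR2 and TR4, had 4 and 8 peaks. The best Nr2c1 peak, at 6.739, carried 8 copies of GCGTG but lay inside the neighbouring Ndufa12. Nr2e1 and Nr2e3, of neural stem cells and photoreceptors, had 3 and 1 peaks, with best scores of 5.981 and 5.649.

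Among the COUP-TF genes, which encode orphan receptors with roles in neural and vascular development, Nr2f1 had an intronic peak of 6.198 with 5 copies of GCGTG and a promoter peak of 5.317. Nr2f6 had 1 peak at 5.55, which lay 3821 bp past its end. Nr2f2 had none within 10 kb, and the closest was 12.3 kb downstream at 5.65.

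Among the steroid receptor genes, the longest, Esr1 and Nr3c2, had best scores that were low for their length. Esr1, encoding estrogen receptor α, held 26 peaks over 394.0 kb, beside a median of 17, with a best score of 7.216 at the 25.1 percentile. Esr2, encoding estrogen receptor β, had 5 peaks and a best of 7.975 in intron 3. Nr3c1, encoding the glucocorticoid receptor, had 4 peaks, all within introns, and the best, 7.127, lay 594 bp past the gene start. Nr3c2, which encodes the mineralocorticoid receptor that drives colonic sodium uptake, had 11 peaks beside a median of 15.5, and its best of 6.740 was at the 19.2 percentile. Pgr, encoding the progesterone receptor, had 6 peaks and a best of 6.313.

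The estrogen-related receptors are orphans that act on energy metabolism. Esrrb had 14 peaks beside a median of 8, with a best score of 8.972 in intron 1, and Esrrg had 32 beside a median of 22, with a best of 8.987. Both best scores were above the medians for their lengths, 7.40 and 8.55. Esrra, the short gene of the trio at 10.8 kb, had no peak, and the nearest lay 19.7 kb upstream with a score of 6.45.

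The NR4A genes encode orphan receptors induced within minutes of many stimuli. Nr4a2 stood highest of all 36 genes for its length. Its 5 peaks compared with a median of 1 for genes of its length, and its best score of 10.944 was at the 98.8 percentile against a median of 5.65. The 2 best peaks, 10.944 at chr2:57116171-57116475 and 9.636 at chr2:57117680-57117981, both lay in intron 1, at 7680 and 6172 bp from the gene start. They sat 1285 and 2793 bp upstream of the nearest annotated start, which is an internal start, and outside the promoter window used below. Nr4a3 had a single peak, at its promoter. Nr4a1 had none in range, and the nearest lay 10.7 kb upstream at 4.96.

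Nr5a2 encodes LRH-1, a factor of intestinal crypt renewal and local steroid synthesis. It had 7 peaks, of which the best scored 9.206 in intron 6, at the 84.8 percentile. Nr5a1, encoding the adrenal and gonadal factor SF1, had none, and the nearest peak was 31.6 kb downstream with 6.65. Nr6a1, whose product GCNF silences pluripotency genes, had 14 peaks beside a median of 10, and its best score of 10.965 was the highest of the set, at the 91.4 percentile for its length and rank 716 of all WT peaks.

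**Figure D2:**
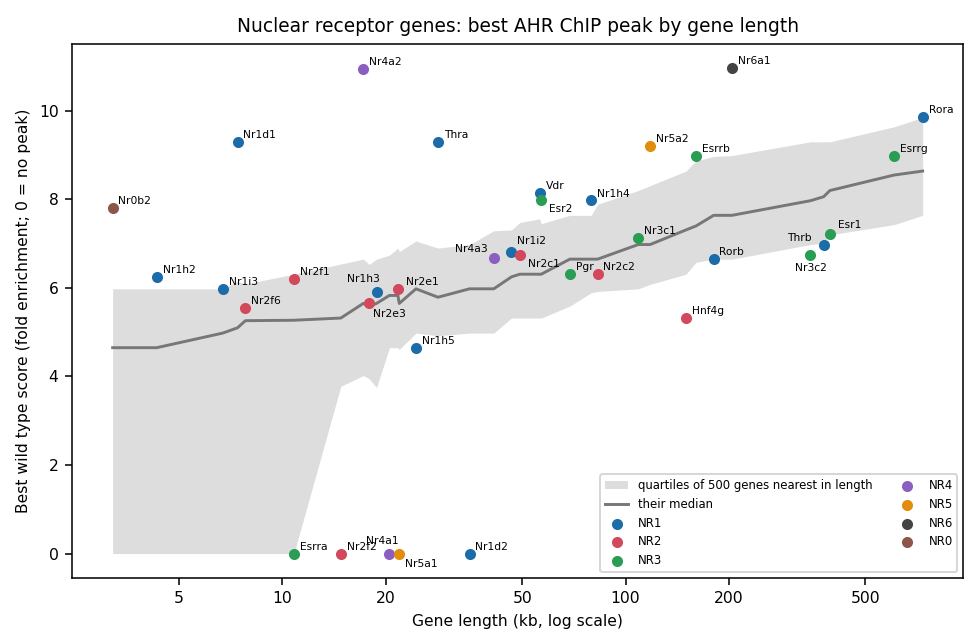
Best WT score of each nuclear receptor gene (fold enrichment, 0 where there was no peak) against gene length in kb on a log scale, coloured by subfamily, with the median and quartiles of the 500 protein-coding genes nearest in length in grey. Nr4a2, Nr1d1, Thra, Nr0b2 and Nr6a1 stand well above the grey band, and Hnf4g (5.317) has the lowest percentile, 8.3, of the genes with a peak.

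The best scores over all 36 genes were spread on both sides of those of their length neighbours. The median best score was 6.71 (95% order-statistic interval 5.98 to 7.81), with the 5 genes without a peak set to 0, and the median over the neighbours was 6.31, a difference of 0.40. The interval holds the neighbours' value. Of the 36 genes, 23 were above the median of their own neighbours and 13 below, 12 lay in the upper quartile and 9 in the lower, and the median percentile was 58.8. Only the 5 genes Nr4a2 (98.8), Nr1d1 (96.4), Thra (96.1), Nr0b2 (91.6) and Nr6a1 (91.4) were in the upper 10%, and 2 of these share their peaks.

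The 5 genes without a peak did not include the shortest ones. They spanned 10.8 to 35.1 kb, and among genes of their lengths the share with a peak ran from 70.8% for Esrra to 88.8% for Nr1d2. Widening the search to 50 kb gave all 36 genes a peak, as it did for 98.9% of the neighbours.

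Counted per length, peaks were somewhat denser at the nuclear receptor genes, with 5.36 per 100 kb of gene and flank (95% Poisson interval 4.73 to 6.05) beside 4.53 at the length neighbours. The number of peaks exceeded the neighbours' median at 21 genes, fell short of it at 12 and equalled it at 3. The 5 longest genes held 140 of the 257 peaks, and without them the density was 5.23 beside 4.55. With CA repeat peaks left out, the density was 1.69 for both sets.

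**Figure D3:**
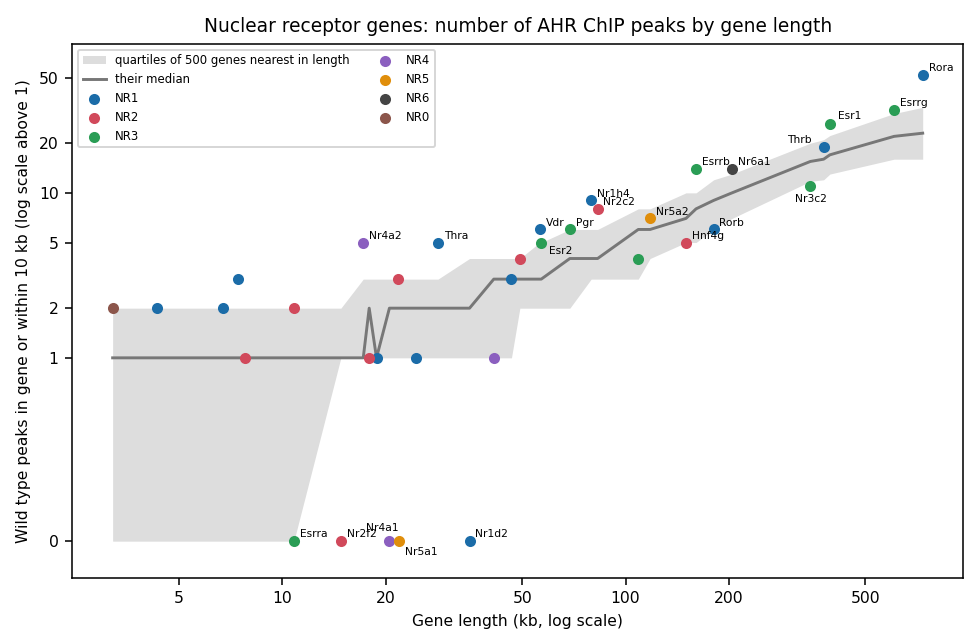
Number of WT peaks in each nuclear receptor gene or within 10 kb (log scale above 1) against gene length in kb on a log scale, with the median and quartiles of the 500 protein-coding genes nearest in length in grey. The count follows length, from 0 to 2 peaks at most short genes to 52 at Rora, with Rora, Esrrb, Nr1h4 and Nr4a2 among the genes above the band.

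Most of the 257 peaks, 212 (82.5%), lay in introns, and 22 genes had at least 1 there. Upstream and downstream flanks held 17 each (6.6%), promoters 8 (3.1%) and exons 3 (1.2%), in Rorb, Nr2c2 and Nr4a2. Of the 209 intronic peaks with an intron number, 97 (46.4%) were in intron 1, which makes up 39.3% of the intron length of these genes, and 142 (67.9%) were in introns 1 or 2, which make up 63.5%.

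The longest genes showed the same wide scatter along their length. In Rora 41 of 52 peaks were in intron 1, with a median gap of 9.7 kb from peak to peak and scores from 3.23 to 9.86. In Esrrg the median gap was 16.0 kb, in Esr1 13.8 kb, in Thrb 17.0 kb and in Nr3c2 18.1 kb. The peaks of Nr3c2 sat mostly in intron 2, with 7 of 11. The share of each gene's length in these introns is not given here, so the counts show no preference for an intron.

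**Figure D4:**
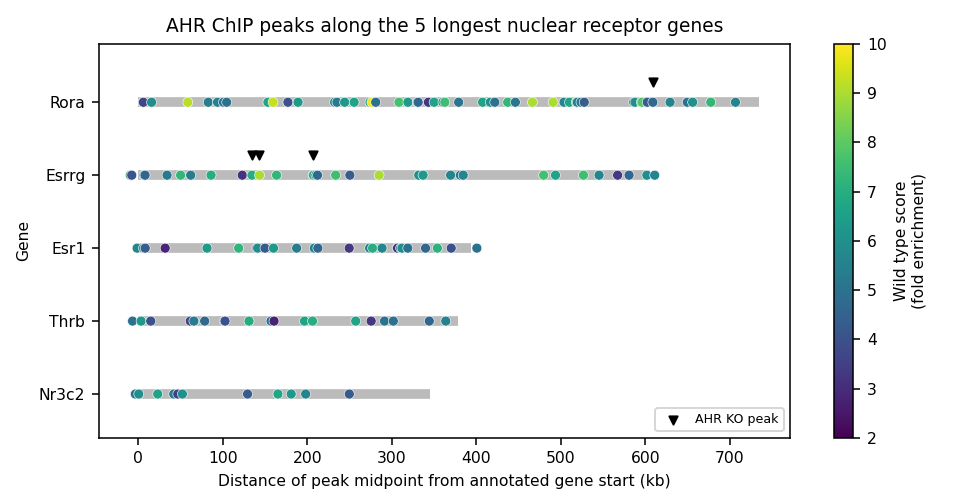
Position of each WT peak along the 5 longest nuclear receptor genes, as distance of the peak midpoint from the annotated gene start in kb, coloured by WT score (fold enrichment), with the gene as a grey bar and AHR KO peaks as black triangles. Peaks are spread over each gene, with 52 in Rora and 32 in Esrrg, and AHR KO peaks lie over Rora (1) and Esrrg (3).

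A promoter peak was one that touched the stretch from 1000 bp upstream to 100 bp downstream of any annotated start of the gene. Such peaks numbered 8, at 7 of the 36 genes, beside 10.7% of all protein-coding genes and 13.1% of the length neighbours. Those at 3 genes touched the promoter of the gene start itself. The highest, 10.965 at Nr6a1 (chr2:38927302-38927613), had its midpoint in intron 1, at 230 bp past the gene start, and touched the promoter stretch over 26 bp. The Nr4a3 peak, 6.681 at chr4:48044906-48045197, was centred 101 bp upstream of the start and lay wholly within the promoter. At Nr2f1 a peak of 5.317 at chr13:78200723-78200905 was centred 1057 bp upstream and touched the promoter over 35 bp.

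The other promoter peaks were at alternative starts. The Nr3c2 peak, 5.969 at chr8:76899690-76899945, lay at a coding transcript start 330 bp from the gene start, with a GC content of 71.0%. The Esr1 peak, 5.649 at chr10:4921728-4922125, and the second Nr6a1 peak, 4.320, lay at starts of non-coding transcripts 311377 and 142577 bp into their genes. Thrb (4.984) and Esr2 (3.987) had their promoter peaks at internal coding starts, 302560 and 9544 bp in. Only the Nr6a1 peak was among the top 10% of scores.

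RefSeq promoters of GRCm38, from 250 bp before to 50 bp after a start, were at hand for 32 of the genes, as 43 promoters. The word TNGCGTG occurred in 2 of them (4.65%), at Esrrg and Nr1d1, beside 5.07% of 32851 promoters, and neither overlapped a WT peak, the nearest being 6.75 and 2.86 kb away. The shorter GCGTG occurred in 20 (46.5%), beside 32.4%, and AGGTCA in 5 (11.6%), beside 16.3%. The Nr4a3 promoter was the only one of the 43 that a WT peak overlapped, and it held 3 copies of GCGTG.

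CA repeats were present in most of the peaks. A peak was taken as a CA repeat when CACACA or TGTGTG occurred 3 or more separate times in its central 200 bp. By this measure, 175 of 257 (68.1%, 95% Wilson interval 62.2 to 73.5) were CA repeats, beside 61.9% of peaks at other protein-coding genes. At least 50% of the bases were soft-masked in 208 (80.9%), beside 84.0%. GC content had a median of 46.0% in both sets.

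**Figure D5:**
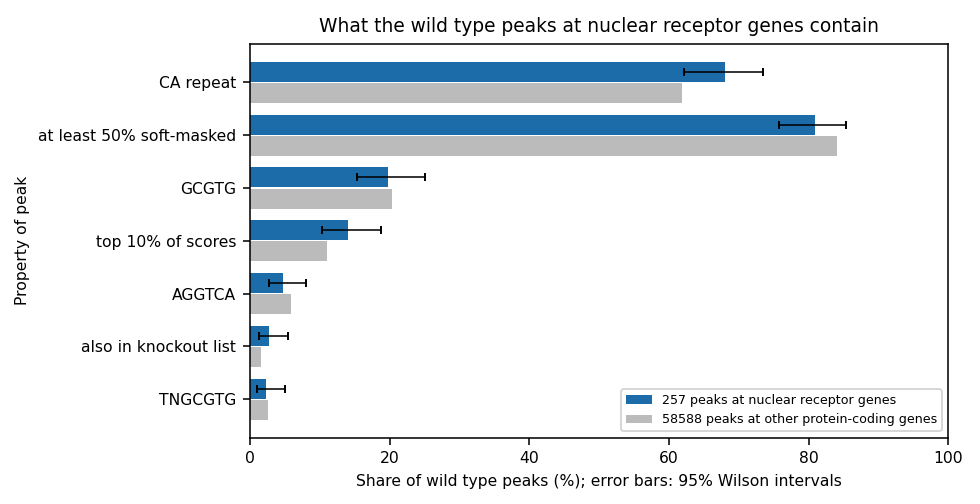
Share of WT peaks (%) with each property, for the 257 peaks at nuclear receptor genes (blue, with 95% Wilson intervals) and the 58588 peaks at other protein-coding genes (grey). CA repeats were in 68.1% and 61.9%, and TNGCGTG in 2.33% and 2.56%.

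For the words bound by AHR and by the receptors themselves, the interval around the share at these genes held the share elsewhere. TNGCGTG, searched on both strands, was in 6 peaks (2.33%, 1.07 to 5.0), beside 2.56%, and GCGTG, which it contains, in 51 (19.8%, 15.4 to 25.1), beside 20.4%. AGGTCA was in 12 (4.67%, 2.69 to 7.98), beside 5.88%, and 6 of these peaks were in Rora. Pairs of AGGTCA spaced by 1 or by 4 bases, the arrangements read by many heterodimers, were in 0 of 257, which allows a share of up to 1.17%, beside 0.0632% and 0.00512%.

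The 6 peaks with TNGCGTG were at Thrb (3.779), Nr2c2 (4.447), Esr1 (4.283), Rora (4.984), Nr1h2 (4.984) and Nr5a2 (7.054), and all were at least 76.5% soft-masked. Those of Thrb, Nr2c2 and Esr1 lay in nearly identical sequence that was 100% soft-masked. Their sequences are shown because they carry the AHR word outside a CA repeat, with that word in capitals, on the plus strand of GRCm38, at chr14:17761921-17762120, chr6:92115900-92116097 and chr10:4761325-4761524. The last line, at chr10:94168944-94169143 in intron 7 of Nr2c1, is the least masked site of the set (14.0%), with CACGC in capitals. These 4 sites were chosen after their values were seen.
Thrb intron 1: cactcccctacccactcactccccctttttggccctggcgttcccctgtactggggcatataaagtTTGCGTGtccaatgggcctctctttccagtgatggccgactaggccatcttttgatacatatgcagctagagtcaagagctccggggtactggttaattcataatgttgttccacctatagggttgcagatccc
Nr2c2 intron 1: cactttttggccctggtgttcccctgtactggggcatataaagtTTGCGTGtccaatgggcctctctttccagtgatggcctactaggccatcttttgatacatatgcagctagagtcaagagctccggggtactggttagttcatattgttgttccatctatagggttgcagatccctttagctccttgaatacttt
Esr1 intron 4: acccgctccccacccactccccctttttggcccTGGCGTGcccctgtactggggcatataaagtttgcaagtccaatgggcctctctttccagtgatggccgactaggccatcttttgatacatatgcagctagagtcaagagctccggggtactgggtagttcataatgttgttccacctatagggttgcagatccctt
Nr2c1 intron 7: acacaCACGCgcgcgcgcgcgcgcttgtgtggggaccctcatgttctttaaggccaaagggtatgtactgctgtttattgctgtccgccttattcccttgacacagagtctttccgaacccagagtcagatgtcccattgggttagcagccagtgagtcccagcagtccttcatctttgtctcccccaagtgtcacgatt
The Thrb site was identical to that of Esr1 at 188 of 196 aligned bases (95.9%) and to that of Nr2c2 at 171 of 176 (97.2%). In Esr1 the word lay at another place in this shared sequence than in Thrb. The 25 bases around the Thrb word recurred in 1785 of the 4745 WT peaks that held TNGCGTG anywhere (37.6%), which had a median score of 4.40. The Nr2c1 peak scored 4.32, and the printed stretch opened with a short run of CA and CG.

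Peaks with under 50% soft-masked bases were present at 21 genes (58.3%), beside 43.4% of the length neighbours. There were 49 such peaks, and 46 of them were CA repeats. The other 3 made up 1.17% of the 257 peaks, beside 1.34% for the same kind of peak at other protein-coding genes. They were in intron 1 of Thrb (3.987), intron 7 of Nr2c1 (4.32) and intron 1 of Rora (5.649), all near or below the median of the set. The AHR target genes Cyp1a1, Cyp1b1 and Ahrr, by the same count, had best scores of 17.97, 10.85 and 10.97 at sites that were 0 to 2% soft-masked, were not CA repeats and held TNGCGTG.

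In the AHR KO list, 4 of the 36 genes had a peak (11.1%, 95% Wilson interval 4.41 to 25.3), beside 4.47% of all protein-coding genes and 7.86% of the length neighbours. This order was not kept under narrower limits: with 2 kb flanks the shares were 5.56% and 6.65%, and in the gene body alone 5.56% and 6.41%. The genes were Rora with a score of 5.438, Vdr with 5.554, Esr2 with 5.881 and Esrrg with 5.384, 6.248 and 5.999. All 6 KO peaks were CA repeats without GCGTG, and they ranked 1223 to 1706 among the 1931 of the list. The Vdr peak was upstream of the gene at the edge of the 10 kb flank, and its midpoint fell outside it. The Esr2 peak was centred 2966 bp upstream of the start, and the others were in introns 1 and 2.

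Each of the 6 KO peaks overlapped a WT peak. The WT scores there were 4.652 at Rora, 8.145 at Vdr, 6.643 at Esr2 and 6.978, 8.987, 6.198 and 6.978 at Esrrg, where 1 KO peak met 2 WT peaks. For Vdr and Esrrg these included the gene's best WT peak. Of the 257 WT peaks, 7 (2.72%, 1.33 to 5.51) overlapped a KO peak, beside 1.58% of peaks at other genes. None of the Nr4a2, Nr6a1, Thra, Nr1d1 or Nr5a2 peaks did, as is usual for single genes at so low a share. Scores of the lists were not compared, because they depend on depth.

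The depth of the KO library bears on how many of the other WT peaks it could have shown. The steps of its scores gave a background of 0.287 fragments, against 2.009 in WT, and its lowest peak on the step stood for 5 fragments. At that background, 5 fragments give a score of 4.66. Equal scores in the lists do not stand for equal fragments per background, because the constant added to pileup and background weighs more in KO. In WT, the Thrb peak of 4.652 in intron 5 stood for 13 fragments over 2.009. Scaled by the backgrounds, a WT peak would hold fewer KO fragments than its score would give. Among the 145 WT peaks on the step, 23 scored below 4.66 and 122 at or above it, and 120 of the 122 did not overlap a KO peak. For the reason given, these counts cannot tell how many WT peaks the KO library had the depth to show. The 112 peaks off the step were not converted. The score of 4.66 is also no hard limit, since KO scores went down to 2.36 and the Rora WT peak of 4.652, just below it, did overlap a KO peak. Carried over at an equal score, the median WT score would give 6.27 fragments and the highest 13.1, which is more than scaling by background would give. The KO list is a single list with no replicate.

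Counts for 3 further lists of genes around nuclear receptors follow, without a test. The 13 other nuclear receptors, the retinoid receptors and PPARs among them, had a WT peak at 12 (92.3%, beside 88.0% of the genes nearest to them in length), a promoter peak at 2 (beside 13.3%) and a KO peak at none, with a median best score of 6.82. Of 12 coregulators, which nuclear receptors recruit to activate or repress, 11 (91.7%, beside 95.5%) had a peak, 2 had a promoter peak (beside 14.3%) and none a KO peak, with a median best score of 6.65. Of 15 classical target genes of the receptors, 14 (93.3%, beside 85.6%) had a peak, 7 a promoter peak (beside 12.9%) and none a KO peak, with a median best score of 7.31. A KO peak lay at 6.97%, 8.35% and 4.97% of the length neighbours of these lists. Klf9, a thyroid hormone and glucocorticoid target, had a best score of 9.95 at a site that was 15.5% soft-masked, not a CA repeat, and held GCGTG. The best sites of Fkbp5 (9.97), a glucocorticoid target, and of Abca1 (8.97), a liver X receptor target, were CA repeats, and Tsc22d3, another glucocorticoid target, had no peak.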

How the data were processed

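The deposited files were 2 peak lists, 1 for WT and 1 for AHR KO organoids, in mm10 coordinates. Per the labels and the study's methods, the authors aligned reads with BWA 0.7.15, marked duplicates with Picard 2.1.1, called peaks of each IP against its input with MACS2 2.1.1 and annotated them with HOMER 4.8. The methods name Bedtools intersect and custom scripts for finding peaks shared between experiments or particular to 1 of them, and whether the WT list was made in this way from the 4 cultures is not given in the sources used here. The KO label gives no number of cultures, and the study's methods give 4 biological replicates for both genotypes. The deposited score column was read as a fold enrichment, a ratio of summit pileup plus 1 to background plus 1, from the steps in its values (tolerance 1e-05). Fragment counts derived from it are therefore a reading of the scores, and the depth of each library is unknown.

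Genes were those of GENCODE M21. Peaks counted for a gene when they overlapped it or its 10 kb flanks by at least 1 bp. Each gene was set beside the 500 non-member protein-coding genes nearest in length. A peak's place was given by its midpoint, after promoters (1000 bp upstream to 100 bp downstream of any transcript start). Base content was counted in the central 200 bp of a peak, and soft-masking was that of the RefSeq GRCm38 genome. Intervals were 95% Wilson, Poisson or order-statistic intervals, and the limit for a count of 0 was 3 counts. They cover counting error only. Scripts used Python 3.11.15, numpy 2.4.6, pandas 2.3.3 and scipy 1.17.1 and were tested on simulated data.

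No test was run, since the lists hold no value per culture. The genes named one by one were the 8 with the highest best score and every gene with a promoter peak, a KO peak or no WT peak, with the rest of the 36 in order of subfamily. Members, gene lists and rules were chosen with earlier results of these data known.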

Additional observations from a re-analysis of the deposited data

How the results depend on the processing

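Of 38 alternatives over 7 results, 25 stayed within the interval of the reported value or within 1.5 times a reported count, 13 moved and none changed sign. The order of members against length neighbours did turn for 2 shares, as given below. The share of genes with a WT peak was 100% with 50 kb flanks (98.9% of length neighbours), 63.9% in the gene body only (69.2%), 36.1% for peaks in the top 10% of scores (34.5%), 61.1% without CA repeat peaks (66.3%) and 58.3% for peaks under 50% soft-masked (43.4%). The members' share was thus above that of the neighbours for the 50 kb, top 10% and soft-masking settings and below it otherwise. The density per 100 kb was 0.804 for the top 10% of scores (0.491), 1.69 without CA repeat peaks (1.69) and 1.03 for peaks under 50% soft-masked (0.744). The moves of the members' own values follow from the construction of the alternatives, which count fewer peaks or a wider stretch. That does not cover the differences from the neighbours, which were not tested. The difference in median best score was 4.52 for peaks under 50% soft-masked, because most length neighbours had no such peak and their median was 0. With genes that had no peak left out it was 0.17.

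Promoter peaks were at 15 genes within 2 kb to either side of a start (32.5% of length neighbours, 26.4% of all protein-coding genes), at 2 genes from 250 bp upstream to 50 bp downstream (4.8% and 3.77%) and at 1 gene for the top 10% of scores (2.35% and 1.81%). Counting GCGTG in place of TNGCGTG gave 19.8% of peaks. The share of genes with a KO peak, 11.1% (7.86% of length neighbours), was 5.56% with 2 kb flanks (6.65%), 5.56% in the gene body only (6.41%), 13.9% with 50 kb flanks (13.8%) and 8.33% by peak midpoint (7.83%), on counts of 2 to 5 genes.

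Leaving out Rora or the 5 longest genes, density under 50% soft-masking and leaving out genes without a peak were added after seeing the data. Leaving out a replicate was not run. No paired analysis was possible because neither list gives values for single cultures. The AHR KO list is a single list of lower background depth, with no replicate.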
